A study of Mus musculus with 28 samples.

Results

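The cytosolic ribosome is built from a small and a large subunit, each an assembly of ribosomal RNA and of many proteins that are each encoded, as a rule, by a single active gene. The members described here are these protein genes, taken from the exonic table by symbol: Rps or Rpl followed by a number and at most the letter a, x or l, together with Rplp0, Rplp1, Rplp2 and Rpsa. The rule found 80 members among the 23453 genes of the table, 31 of the small and 49 of the large subunit. The rule reads the symbol alone.

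The proteins are needed in matched amounts, and their mRNAs are among the most abundant in most cells. Many of these mRNAs begin with a C and a short run of pyrimidines, the terminal oligopyrimidine tract, through which the growth pathway of the mTOR kinase controls their translation. The genes have also left many processed pseudogenes in mammalian genomes, so that reads from one gene can align to several places.

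RNA from 28 single mouse cells was counted. The labels describe 8 astrocytes and 12 neurons from C57/BL6 cortical primary cultures, and 8 C57/BL6/N interneurons collected with a patch pipette from acute slices of prefrontal cortex. No treatment or engineered allele is named for any of them. The labels attach a text on a perfused adult mouse to the cultured cells, while the methods describe cultures from embryonic brain, and no cell is tied to an animal or a culture. The cultured cells were sequenced from TruSeq Nano libraries on a NextSeq 500, the interneurons from TruSeq Stranded libraries on a HiSeq 2500.

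The 28 columns of the tables carry codes that match 0 of the sample labels, so no column is assigned to a cell type here. The columns were described by their codes: 8 columns BRP564 and BRP566 to BRP572 (the BRP564 block), 12 columns BRP528 to BRP543 (the BRP528 block) and 8 columns starting with F (the F block). Summed counts per 1000000 exonic counts (CPM) of 8 astrocyte markers ran from 1522 to 6174 in the BRP564 block, from 191 to 2463 in the BRP528 block and from 0 to 4352 in the F block. The sums of 8 neuronal markers were 311 to 801, 4900 to 11070 and 1608 to 17800 CPM, and those of 8 markers of GABAergic interneurons 1.62 to 190, 0.537 to 3110 and 565 to 11886 CPM. The neuronal sums of the BRP564 block did not overlap those of the other columns, while the F columns overlapped those of the BRP528 block in all 3 sums. All 8 astrocyte markers had counts in every column of the BRP564 block, but the median of Slc1a2 was higher in the BRP528 block, at 804 against 192 CPM. Of the 8 neuronal markers 5 were at 0 in some BRP564-block columns, Snap25 in 6 of them, while Map2 (236 to 484 CPM) and Stmn2 (53.8 to 433 CPM) had counts in all 8. S100b and Aldh1l1 were at 0 in all 8 F columns, while Slc1a2 reached 4350 CPM in 1 of them. Summed CPM of 5 microglial markers reached 2093 in 1 F column and at most 46.5 in the BRP columns. In the F block Csf1r alone reached 2093 CPM. There C1qa was at 0 in all 8 columns, and C1qb, P2ry12 and Cx3cr1 reached at most 0.542, 1.08 and 4.73 CPM. The part of such differences between cells in the results was not tested. Exonic totals were 12969692 to 19798892 in the BRP564 block, 17483754 to 26770944 in the BRP528 block and 838343 to 14831505 in the F block, where 4 columns lay under 5000000. Kits and sequencers are given per labelled sample and were not matched to columns, so their part in any difference between blocks was not tested.

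The family took 17280914 of the exonic counts, or 3.91%. Its share was highest in the BRP564 block, at 5.78% in BRP564, 5.57% in BRP566, 5.29% in BRP567, 6.04% in BRP568, 5.70% in BRP569, 7.91% in BRP570, 4.69% in BRP571 and 4.07% in BRP572. In the BRP528 block the share lay between 2.27% and 4.14% with a median of 3.28%. The medians of these blocks were 1.72-fold apart, and only BRP572, at 4.07%, lay below the highest column of the BRP528 block. In the F block the shares were 1.63% in F1, 2.11% in F2, 4.17% in F6, 1.66% in F7, 3.46% in F11, 3.53% in F12, 1.55% in F16 and 0.341% in F24. F6, F11 and F12 lay within or just above the range of the BRP528 block, and the other 5 F columns below it. The 95% Wilson interval of a share was at most ±0.0264 percentage points wide in any column, for F16 1.52% to 1.57%. Such intervals cover counting error only, since amplified reads are not independent molecules.

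**Figure D1:**
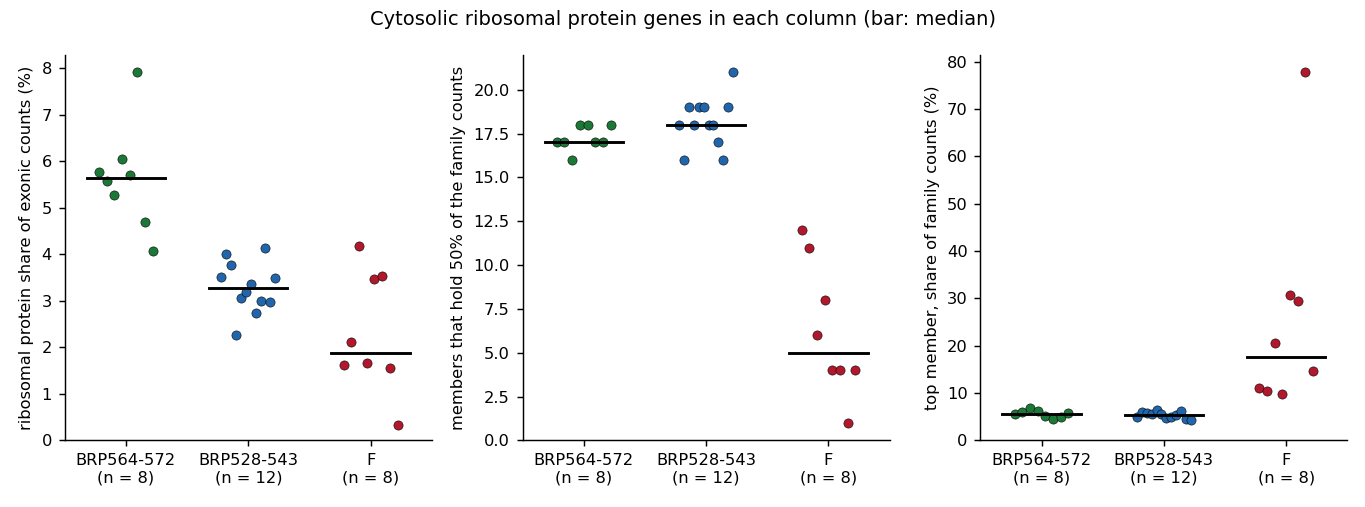
Each point is 1 column (1 cell) and each bar a block median. Left, the ribosomal protein share of exonic counts in percent, with block medians of 5.63, 3.28 and 1.89. Middle, the number of members that together hold 50% of the family counts, 16 to 21 in the BRP columns and 1 to 12 in the F columns. Right, the share of the family counts on the top member, in percent, which reaches 77.8 in F16.

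The family was counted broadly in the BRP columns and patchily in the F columns. In each BRP column 75 to 78 members had a count, and 75 members had one in all 20 BRP columns. Over the F columns 28 to 78 members had a count, 28 of them in F16, the shallowest column, and 9 members had one in all 8 F columns. Genes in general were also counted less often there. The median number of all genes with a count was 11585 over the BRP columns and 4912 over the F columns. For members it was 76 and 61.5, a smaller fall in proportion. The number of all genes with a count in every column of a block is not given here. The top member held 4.21% to 6.85% of the family counts in the BRP columns, always a large-subunit gene such as Rpl4, Rpl7 or Rpl11 except for Rps2 in BRP540. The top member of the F columns was Rpl23 in F1 (11.1%), Rpl9 in F2 (10.3%), Rpl13a in F6 (20.6%), F11 (30.6%) and F12 (29.5%), Rps25 in F7 (9.72%), Rpl39 in F16 (77.8%, Wilson interval 77.1% to 78.5%) and Rpl36a in F24 (14.7%). In F16 a single gene thus carried most of the family, with 10080 counts.

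Profiles over the 73 members with a mean of at least 10 CPM were compared between columns by Spearman's rho, as a description. The median rho was 0.944 over the 28 pairs within the BRP564 block, 0.853 over the 66 pairs within the BRP528 block and 0.802 over the 96 pairs between them. It was 0.178 over the 28 pairs within the F block, and 0.299 between the F and the BRP528 block. The F pair with the highest rho was F11 and F12 at 0.749, the next at 0.546. Their best counted members were at close levels, with Rpl13a at 10603 and 10396, Rpl7 at 3262 and 3656 and Rpl39 at 2422 and 2310 CPM. The numbers of genes with a count differed, at 6564 in F11 and 3680 in F12. F11 and F12 are treated as separate columns throughout, and whether they are independent was not tested. Both columns held an unusual amount of Rn45s, the precursor of ribosomal RNA, at 167900 and 176930 CPM against 41.8 to 18784 CPM in the other F columns.

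**Figure D2:**
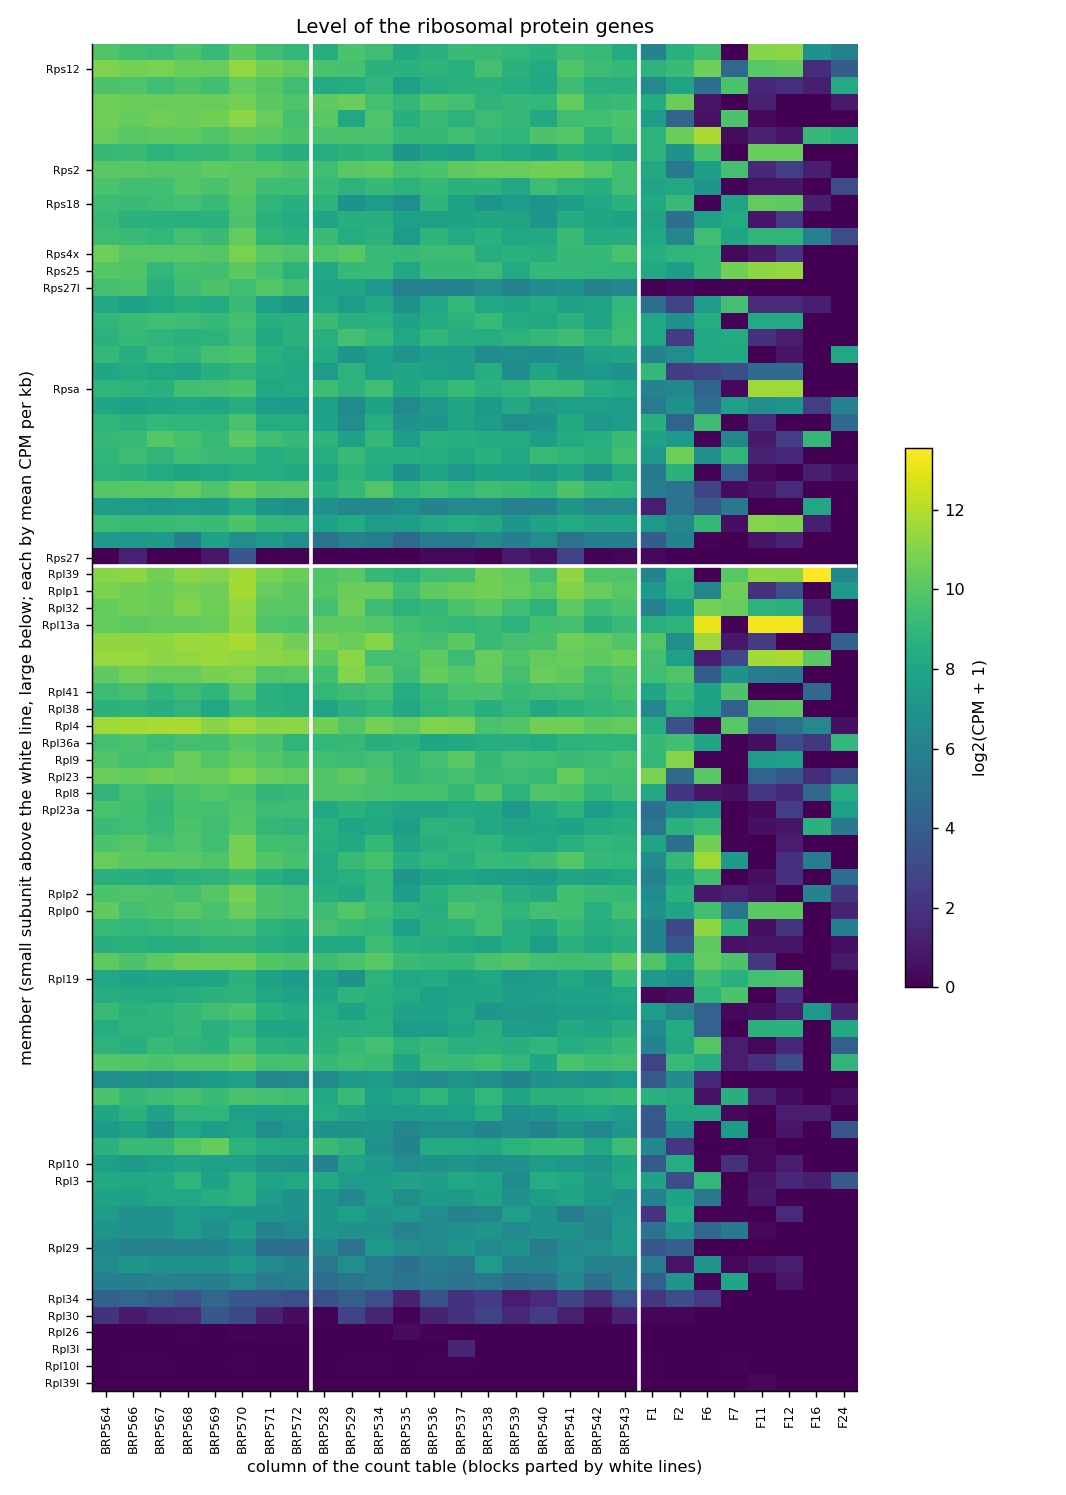
Colour gives the level of each of the 80 members (rows) in each of the 28 columns as log2(CPM + 1), with names beside the members that the text describes and white lines between the blocks and between small (above) and large subunit. Members keep nearly the same order across the BRP columns, while in the F columns single members reach the top of the scale beside members at 0. Rps27, Rpl26, Rpl3l, Rpl10l and Rpl39l are dark throughout.

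Levels of different members can be compared only per length, here as mean CPM over the 28 columns per kb of the principal transcript. Of the 80 members, 73 had a mean of at least 10 CPM, 2 lay between 1 and 10 CPM and 5 below 1 CPM. Over the 73, the levels per kb spanned 41.1-fold, and the 90th percentile lay 10.4-fold above the 10th. The median was 499 CPM per kb for the small and 446 for the large subunit. The highest levels per kb belonged to Rpl39, a very small large-subunit protein (2799), Rplp1 (2290) and Rpl32 (1822). The order of Rpl39 and Rplp1 rested on F16: without that column they were at 2175 and 2375 CPM per kb, and over the BRP columns alone at 2412 and 2970.

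The ribosomal stalk, the flexible arm of the large subunit that recruits elongation factors, is made of Rplp0 with copies of Rplp1 and Rplp2. Its genes were at 489, 2290 and 505 CPM per kb. The levels in CPM of Rplp0 overlapped between the BRP blocks, at 713 to 1352 with a median of 868 in the BRP564 block and 357 to 981 with a median of 671 in the BRP528 block. Rplp2 did not overlap, at 742 to 1720 against 193 to 708 CPM. Rpsa, a small-subunit protein also described as a laminin receptor, was at 303 CPM per kb, and its medians of 463 and 450 CPM in the BRP blocks were nearly equal. Its highest values were in F11 and F12, at 3165 and 3152 CPM, against 0 to 75.3 CPM in the other F columns.

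Members without a working level fell into different kinds. Rpl3l, known from heart and skeletal muscle, had 46 counts, all of them in BRP537. Rpl10l and Rpl39l, known from the testis, had 10 and 2 counts. Their parent genes were all well counted: Rpl3 at 158, Rpl10 at 158 and Rpl39 at 2799 CPM per kb. The coding sequences, without the stop codon, of Rpl3 and Rpl3l were identical at 73.2% of aligned bases, those of Rpl39 and Rpl39l at 85.0% and those of Rpl10 and Rpl10l at 84.7%. Of the X-linked members, Rpl36a was at 935, Rps4x at 663, Rpl10 at 158 and Rpl39 at 2799 CPM per kb.

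The other members with few counts are genes of the standard ribosome, named here after their values were seen. Rpl26 had 14 counts over the 28 columns and 0 in the F block, which allows up to 0.0587 CPM over its columns. Rps27 had 417 counts, Rpl30 had 1051 and Rpl34 had 3632. Of the 50-base transcript windows of Rps27, 1.35% occur in no other gene of GENCODE M21, and 98.7% are shared with Rps27rt, a single-exon copy. The coding sequences of Rps27 and Rps27rt are identical at 100% of 252 bases, while the active paralog Rps27l matches Rps27 at 76.2%. The first 30 coding bases show this, with capitals where a base differs from Rps27:
Rps27 (chr3:90213278-90213615, minus strand, across an intron): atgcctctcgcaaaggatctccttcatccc
Rps27rt (chr9:114982678-114982707, minus strand): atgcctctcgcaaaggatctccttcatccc
Rps27l (chr9:66946175-66946854, plus strand, across an intron): atgccCctGgcTaGAgatctGTtAcaCccT
The 3 coordinates are of GRCm38, and 10 of the 30 bases of Rps27l differ. Rps27rt has no row in the tables analysed here, so no count can be set beside that of Rps27, and how the counting treated reads with several matches was not given in the sources used here.

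The median share of windows unique to a gene was 51.8% over the 80 members, against 100% over 76 genes of mitochondrial ribosomal proteins, and 15 members had under 20% unique windows. Rpl9 with 6.68% unique windows was at 934 CPM per kb and Rpl10 with 7.87% at 158, while Rpl26 with 28.7%, Rpl30 with 52.2% and Rpl34 with 62.1% were at 0.0466, 3.52 and 11.9 CPM per kb. Over the 73 members with a mean of at least 10 CPM, which leave out Rps27, Rpl26, Rpl30 and Rpl34, Spearman's rho of unique windows with level per kb was −0.0148. The levels of members with few unique windows remain uncertain, since the counting could split their reads among copies.

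**Figure D3:**
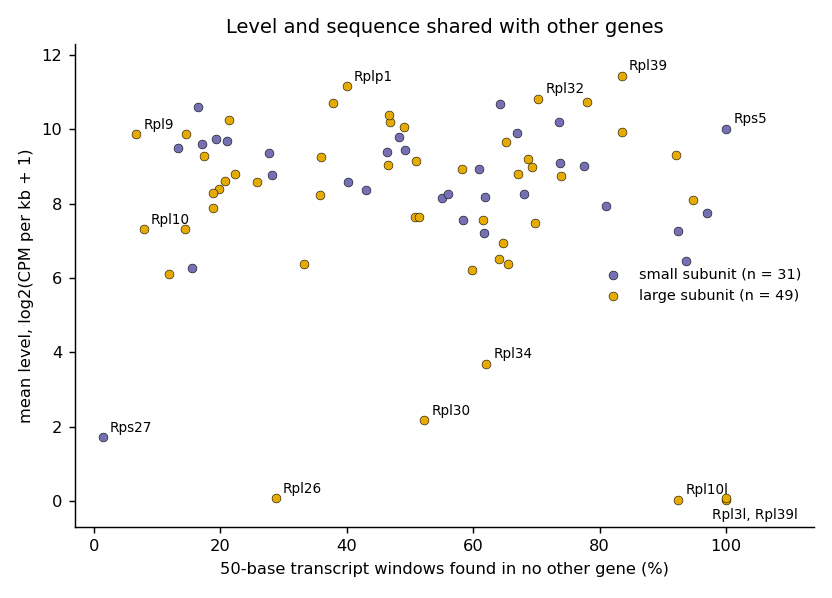
Each point is 1 member, in purple for the small and yellow for the large subunit. The horizontal axis gives the percentage of its 50-base transcript windows found in no other gene and the vertical axis its mean level as log2(CPM per kb + 1). Rps27 stands alone at the left with 1.35% unique windows, while Rpl26, Rpl30 and Rpl34 are low at 28.7% to 62.1% and Rpl9 is high at 6.68%.

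Between the BRP blocks most members had the higher median in the BRP564 block. Of 74 members with a block median of at least 10 CPM, 22 were at least 2-fold higher in the BRP564 block, beside 37% of the 8669 genes that passed the same filter. No member was at least 2-fold lower, beside 23.2% of all genes. There are no replicates of a labelled group here, so these are ratios of block medians with no p-value. The median ratio was 1.63 for the members and 1.19 for all genes. A ratio above 1 was found for 66 of the 74 members, beside 4592 of the 8669 genes. With edgeR's TMM factors in place of exonic totals 14 members were at least 2-fold higher beside 32.5% of all genes, with 59 of 73 ratios above 1 and a median of 1.38, and with DESeq2's size factors 8 beside 30.4%, with 53 of 74 above 1 and a median of 1.21. The count of all genes above 1 was not taken under TMM and DESeq2 factors, where the median of all genes was 1.01 and 0.897. Set against the median of all genes, the members' median stood 1.37-fold, 1.37-fold and 1.35-fold higher under exonic totals, TMM and DESeq2. The direction of 13 members depended on the scaling.

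Of the 74 members, 9 were higher in every column of the BRP564 block than in any column of the BRP528 block, beside 5.56% of all genes, and 0 were lower in every column, beside 4.54%. The 9 were Rpl4, Rpl23a, Rpl27, Rpl37 and Rplp2 of the large subunit and Rps12, Rps15a, Rps21 and Rps27l of the small one. Small-subunit members had a median ratio of 1.78 over 30 genes and large-subunit members 1.57 over 44. The level per kb summed over the 31 small-subunit members was also divided by that summed over the 49 large-subunit members. This ratio was 0.601 to 0.744 with a median of 0.663 in the BRP564 block. In the BRP528 block it was 0.547 to 0.684 with a median of 0.576, so that the blocks overlapped. As the sums cover unequal numbers of genes, a ratio below 1 does not mean a lower level per gene. Of the F columns 6 had a ratio of 0.612 to 0.785, the exceptions being F6 at 0.448 and F16 at 0.0808.

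**Figure D4:**
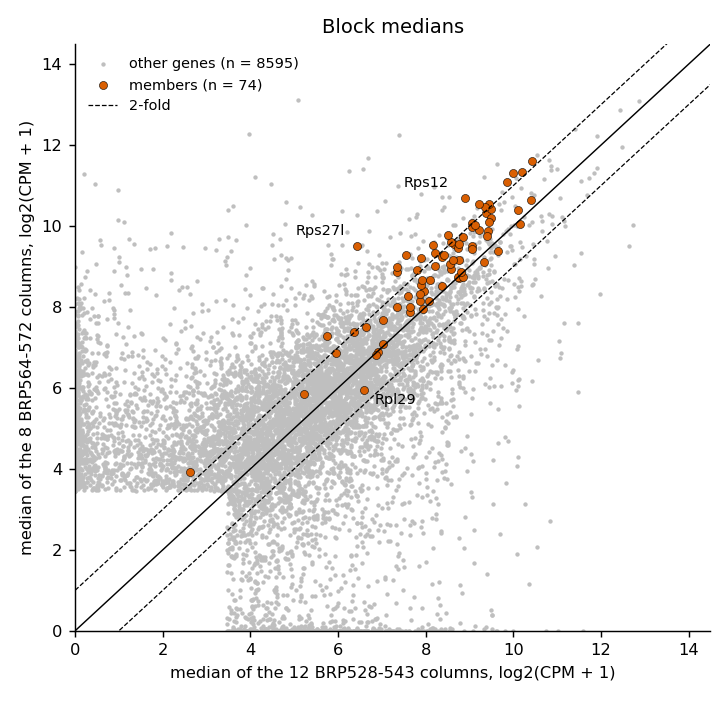
Each point is a gene with a median of at least 10 CPM in one of the BRP blocks, at its median in the 12 BRP528-block columns (horizontal) and the 8 BRP564-block columns (vertical), both as log2(CPM + 1). The 74 members (orange) lie in a band mostly above the line of equality, with 22 past the upper dashed 2-fold line and 0 past the lower one. Grey points, the other genes of the 8669, spread to both sides.

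Rps27l stood farthest from the rest of the family. The gene lies at chr9:66946086-66949516 of GRCm38, on the plus strand. Its levels were 765 CPM in BRP564, 818 in BRP566, 390 in BRP567, 652 in BRP568, 869 in BRP569, 685 in BRP570, 966 in BRP571 and 663 in BRP572. In the BRP528 block they ran from 58.1 to 253 CPM with a median of 85.3. The lowest BRP564-block column lay above the highest BRP528-block column, and the ratio of medians was 8.50, or 8.24 with TMM and 7.22 with DESeq2 factors. The gene had 3 counts in all over the F block, at most 0.181 CPM in a column, although F columns reached 14831505 exonic counts. Rps27l is known as a gene that the tumour suppressor p53 activates, unlike its parent Rps27. It has 77.6% unique windows.

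Rps12 and Rps18 followed. Rps12 was at 1259 to 2643 CPM with a median of 1652 in the BRP564 block and at 309 to 944 with a median of 478 in the BRP528 block, 3.45-fold apart with no overlap. Rps18 was at 370 to 923 CPM against 100.0 to 452, a ratio of medians of 3.37 with overlapping columns. With 16.4% and 13.3% unique windows, both share most of their sequence with other genes. At the other end, Rpl29 was at 27.6 to 94.3 CPM in the BRP564 block and 32.1 to 150.1 in the BRP528 block, a ratio of 0.638. Rpl8 had a ratio of 0.835, with 465 to 1020 against 432 to 943 CPM, and Rpl41, which encodes the shortest protein of the family, one of 0.857, with 332 to 1024 against 335 to 813 CPM. The columns of these 3 genes overlapped, and their ratios stayed below 1 under TMM and DESeq2 factors.

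**Figure D5:**
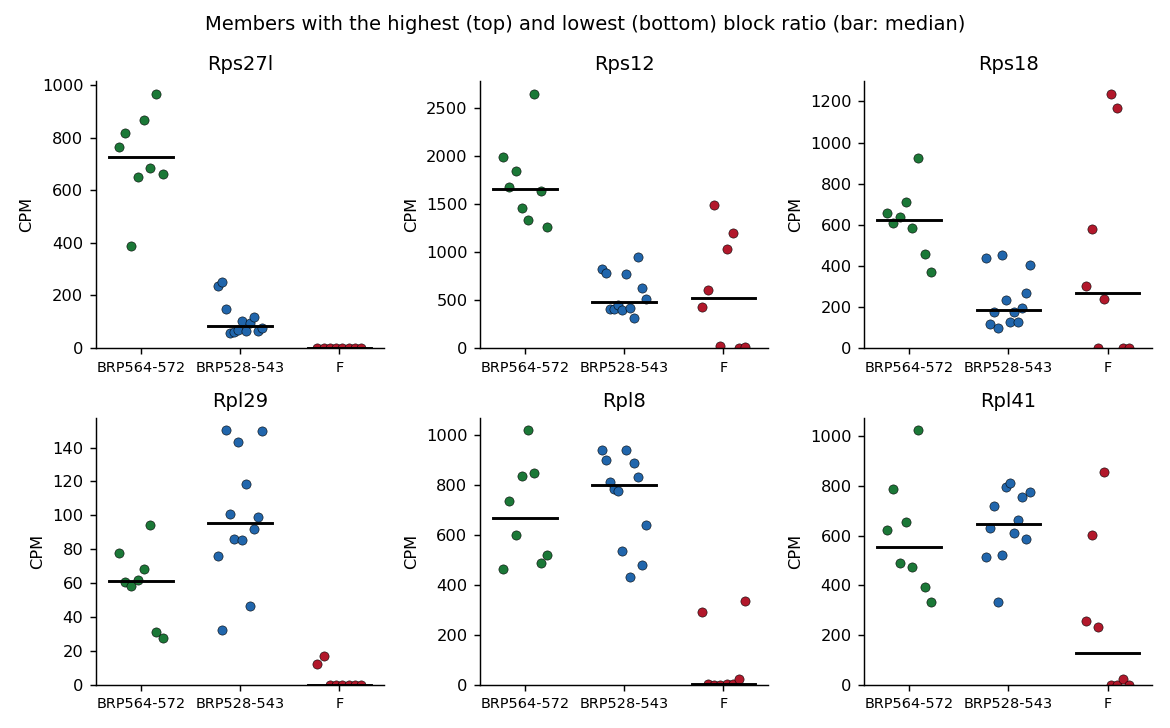
Level in CPM of the 3 members with the highest (top) and the 3 with the lowest (bottom) ratio between the BRP blocks, with 1 point per column and bars at block medians. The blocks are fully apart for Rps27l and Rps12 and overlap for Rps18, Rpl29, Rpl8 and Rpl41. In the F block Rps27l is at or near 0 in all 8 columns, while Rps12 and Rps18 range from near 0 to 1492 and 1237 CPM.

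Within the family's own total the composition differed less. Each member's share of the family counts was compared between the BRP blocks for the 73 members with a mean of at least 10 CPM. For 53 of them the block medians of this share differed by less than 1.5-fold. It was at least 2-fold higher in the BRP564 block for Rps27l (5.14-fold) and Rps18 (2.00-fold), and at most 0.5-fold for Rpl29 (0.356-fold).

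In the F block 62 of 73 members had a median at least 2-fold lower than in the BRP528 block, beside 95.5% of 6540 genes, and 0 were at least 2-fold higher, beside 1.5%. No member was above the BRP528 block in every F column, beside 0% of all genes, and 4 were below it in every column, beside 19.1%. The medians of Rps18, Rpl19 and Rps12 were 1.46-fold, 1.13-fold and 1.08-fold those of the BRP528 block, and that of Rpl39 was 0.836-fold. The F columns held fewer genes with a count, 2338 to 7218 against 9869 to 12815 in the BRP columns, and the counts depended on the scaling. With TMM factors 4 members were at least 2-fold higher beside 3.66% of all genes and 53 lower beside 90.8%, and with DESeq2 factors 12 were higher beside 5.76% and 46 lower beside 88.8%. The direction of 18 members depended on the scaling. With counts summed over a block, 31 members were at least 2-fold lower. The share of all genes was not computed for that setting, so this count cannot be set beside it.

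Members rose and fell together across the BRP columns. Spearman's rho of a member's CPM with the summed CPM of the other members had a median of 0.768 over the 20 BRP columns, against −0.0391 for 5290 other genes with a median of at least 10 CPM. The 20 columns hold both blocks, and the part of the difference between the blocks in this value was not tested. Within a block the median was 0.738 over the 8 BRP564-block columns against −0.0952, and 0.434 over the 12 BRP528-block columns against −0.0280. Over the 8 F columns it was 0.262 against 0.0714. Over all 28 columns it was 0.642 against 0.269, and with TMM factors 0.179 against −0.224, so that the pooled value depended on the scaling. The CPM of all genes in a column share its total. The highest values over the BRP columns were those of Rpl23a (0.944) and Rpl23 (0.925), the lowest those of Rpl29 (−0.412), Rps2 (−0.0466) and Rpl38 (−0.00752).

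Outside the family, the 10 genes with the highest rho over all 28 columns were Lsm6, which binds the U6 small nuclear RNA (0.867), Mrps6 of the mitochondrial ribosome (0.862), the kinase Nek6 (0.851), Gm13826 (0.844), Hdgf (0.838), 1810037I17Rik (0.821), the catalase gene Cat (0.819), the peroxiredoxin gene Prdx1 (0.816), the actin-binding Lasp1 (0.814) and the heme transporter Slc48a1 (0.808). All 10 had a higher median in the BRP564 block than in the BRP528 block, for Mrps6 1583 against 133 CPM and for Prdx1 1036 against 404. The ranking favours such genes, because the family's own share was higher in the BRP564 block. Of all genes that passed the filter of 10 CPM, 4592 of 8669 had a ratio above 1. Over the 8 BRP564-block columns alone their rho ran from −0.119 to 0.857, over the BRP528 block from 0.0559 to 0.888 and over the F block from 0.192 to 0.810. The ranking used exonic totals and was not recomputed with TMM factors.

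Measures of the columns were set beside the family's share by Spearman's rho. Over the 8 BRP564-block columns the highest rho in size was that of the number of genes with a count, at −0.857, with 0.452 for Rn45s, −0.119 for the intronic share of all counts and 0 for the exonic total. Over the 12 BRP528-block columns the values were 0.0769 for the number of genes, −0.650 for Rn45s, −0.573 for the intronic share and −0.210 for the exonic total. Over the 8 F columns they were 0.238, 0.738, −0.619 and 0.381 in the same order. Over all 20 BRP columns the exonic total had a rho of −0.672. The part of these measures in the family's share was not tested.

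Other genes of the translation pathway differed between the BRP blocks in a more mixed way. Among elongation factors, which carry the ribosome along the mRNA, 3 of 8 genes tested were at least 2-fold higher in the BRP564 block and 1 lower. Eef1d, Eef1g and Eef1b2, which recharge the factor that carries tRNA to the ribosome, had ratios of 2.53, 2.21 and 2.17. Eef1a2, the form of that factor in neurons and muscle, was at 0.0637 to 4.70 CPM in the BRP564 block against 20.1 to 135 in the BRP528 block. Among initiation factors 2 of 31 were higher and 3 lower. Eif4ebp1 had medians of 32.2 against 5.38 CPM and Eif4ebp2 of 10.8 against 0.0810 CPM, both encoding repressors of cap-dependent initiation. The columns overlapped, at 19.65 to 44.95 against 0 to 45.87 CPM for Eif4ebp1 and 0 to 28.75 against 0 to 21.12 for Eif4ebp2. The lower Eif4ebp2 median is below the 0.112 to 0.172 CPM that a count of 0 allows in the BRP528 block. Ratios were 0.278 for Eif4g1 and 0.355 for Eif3b, also with overlapping columns. Of 17 genes outside the symbol rule that are known for a terminal oligopyrimidine tract, some of which the other lists also hold, 7 were higher and 0 lower, Eef1b2 and Eef1g among the 7. Others were the intermediate filament gene Vim (8873 against 33.0 CPM), Gas5 (859 against 204), the ribosome-bound scaffold gene Gnb2l1, now Rack1 (886 against 315), and Btf3 (76.6 against 30.9).

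Genes for ribosome assembly were 2-fold higher for 11 of 33 and lower for 3, with a median ratio of 1.63 like that of the members. Ltv1 (4.46-fold), the fibrillarin gene Fbl (3.28-fold), Polr1d (2.82-fold) and Rrp1 (0.266-fold) were among those past 2-fold. The columns of Ltv1, Fbl and Polr1d overlapped between the blocks, for Ltv1 at 3.82 to 223 against 0 to 269 CPM. Those of Rrp1 did not. Mitochondrial ribosomal proteins had a median ratio of 1.19 over 71 genes, equal to that of all genes, with 12 higher, 1 lower and Mrps6 at 11.9-fold. Regulators of the growth pathway had 2 higher and 3 lower of 12. Myc had medians of 13.1 against 0.0286 CPM, with overlapping columns at 0.39 to 25.9 against 0 to 16.4 CPM. Its BRP528-block median is below the 0.112 to 0.172 CPM that a count of 0 allows in these columns. The mTOR activator Rheb had a ratio of 0.369 and its inhibitors Tsc1 and Tsc2 ratios of 0.248 and 0.291, also with overlapping columns. All of these shares stand beside the 37% higher and 23.2% lower of all genes.

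The starts of the members were searched for the pyrimidine run, which no value above used. RefSeq promoters of GRCm38.p6 matched 60 of the 80 members. A run of at least 5 pyrimidines that begins with a C within 5 bases of an annotated start, on the gene's strand, was present at 28 of these 60 genes, or 46.7%. It was present at 25.4% of 67 mitochondrial ribosomal protein genes, and at 21.2% of all 27025 genes of the table. Counted by start, 41.7% of 72 starts of members and 18.4% of all 32851 starts held it. The windows below cover 10 bases before to 20 bases from the start, with a run that begins at the searched positions in capitals. They show a long run, the stalk, the paralog pair and members without a run at those positions:
Rps18 (chr17:33955646-33955675, minus strand): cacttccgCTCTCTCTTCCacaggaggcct
Rplp2 (chr7:141447641-141447670, plus strand): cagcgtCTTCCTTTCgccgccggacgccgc
Rps27 (chr3:90213629-90213658, minus strand): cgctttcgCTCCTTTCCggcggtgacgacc
Rps27l (chr9:66946076-66946105, plus strand): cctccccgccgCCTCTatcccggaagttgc
Rpl39 (chrX:37085203-37085232, minus strand): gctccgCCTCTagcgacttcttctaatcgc
Rps12 (chr10:23787190-23787219, minus strand): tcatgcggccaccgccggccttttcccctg
Rplp0 (chr5:115559457-115559486, plus strand): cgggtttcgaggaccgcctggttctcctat
The runs are 11 bases long in Rps18, 9 in Rplp2 and in Rps27 and 5 in Rps27l and Rpl39. Rps12, with one of the highest ratios between the BRP blocks, and Rplp0 show none that begins within 5 bases of the annotated start. Both windows hold a C-starting run of at least 5 pyrimidines farther downstream, the longer one in Rps12. The absence therefore concerns the searched positions only.

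Almost all counts of the family were exonic. Members had 19851 intronic counts in all, and the intronic share of member counts had a median of 0.0795% over the 28 columns, from 0.00199% in F6 to 3.23% in F2 (Wilson interval 3.13% to 3.33%). Over all genes the intronic share was 5.31% to 63.0%. The members' introns are short, with a median summed length of 2148.5 bases against 13623 for protein-coding genes. Per gene, the median intronic share was 0.0281% for members, 4.96% for 7859 other genes with at least 10 CPM and 0.0740% for the 1596 of these whose introns sum to no more than the longest of the members. Per kb of intron the order of members and the 1596 genes was reversed. Median intronic counts per kb were 22.4 for members, 49.5 for the 7859 genes and 5.46 for the 1596. Rpl41 with 4894 and Rpl6 with 4750 intronic counts made up 48.6% of the family's total. In F2, Rpl41 supplied 88.4% of the members' 3893 intronic counts. No intronic count was present for 9 members, among them Rplp1, Rpl23 and Rpl23a, and Rpl10l has no row in the intronic table.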

How the data were processed

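The authors deposited 2 tables of raw read counts per gene for 28 cells, 23453 genes for exons and 20422 for introns. The submitters' processing notes name bcl2fastq 2.17, STAR 2.4.0 and mm10; the counting tool, annotation and strand setting were not given in the sources used here. All 28 columns were used, 0 were left out and 0 matched a sample label, so the columns were described by block of codes, with range and median and no test. The members and lists were chosen with earlier results of these data known.

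CPM is the count per 1000000 exonic counts of a column. A ratio between blocks was counted at 2-fold or more where 1 block median was at least 10 CPM. Named genes are the 3 highest and lowest members per kb, the stalk, Rpsa, paralogs and parents, X-linked members, the 3 most extreme ratios each way, the 10 closest non-members and at most 4 genes per list past 2-fold; other genes were named after their values were seen. Transcript length, position and windows of 50 bases came from GENCODE M21, matched to all 80 members. Intervals are Wilson intervals at 95%, and the limit of a count of 0 is 3 counts. Python 3.11.15, pandas 2.3.3, scipy 1.17.1, edgeR 4.0.16 (TMM factors) and DESeq2 1.42.0 (size factors) were used. The calls were tested on simulated data. Some items are not reported here. The design named a comparison of protein sequences, for which coding sequences were used in place.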

Additional observations from a re-analysis of the deposited data

Results flagged for a closer look

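The share of family counts on the top member was tested for a column that stands apart within the 8 columns of the BRP564 and of the F block. So were the family's share, the number of members with a count, the ratio of summed small to summed large subunit level and the intronic share. In 1 of these 10 groups the highest column lay far from the nearest other: Rpl39 held 77.8% of the family counts in F16, with the next column, F11, at 30.6%. The measure was Dixon's gap, the distance to the nearest column as a share of the range, at 0.6926 here. In the F block the lowest subunit ratio (0.5215) and the highest intronic share (0.5186) were close to a flag but not flagged. Chance gives such a flag in about 1 of 20 groups if values are normally distributed, which was not tested. F16 has the fewest exonic counts of all columns, 838343, and the fewest members with a count, 28, and the part of depth in this value was not tested.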

How the results depend on the processing

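Values were recomputed under 68 alternative settings over 12 results, besides leaving out each column in turn. Per kb of exon in place of counts, the family's median share was 9.28% over all 28 columns and 13.0%, 8.63% and 7.12% in the BRP564, BRP528 and F blocks. The number of members at least 2-fold higher in the BRP564 than in the BRP528 block, 22, became 14 with edgeR's TMM factors and 8 with DESeq2's size factors, and without a filter on low CPM 1 member was lower in place of 0. In the F block, 0 members at least 2-fold higher became 4 with TMM (3.66% of all genes), 12 with DESeq2 factors (5.76%), 1 with summed counts and 1 without columns under 5000000 counts, and 62 lower became 53 with TMM, 46 with DESeq2 factors and 31 with summed counts. The share of all genes was not computed for summed counts, without the filter on low CPM or without columns under 5000000 counts. The median rho of members with the family, 0.642, became 0.179 with TMM factors, 0.562 as Pearson's r of log2(CPM + 1), 0.768 over the BRP columns and 0.262 over the F columns. The spread of levels, 10.4-fold, became 8.94-fold without length, 11.1-fold with the union of exons, 11.8-fold for members with at least 50% unique windows and 9.19-fold over the BRP columns. Exon union, unique windows, BRP columns for the spread, columns under 5000000 counts for the 2-fold counts, and Rn45s left out were chosen after seeing the data. The cause of these changes was not tested.

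Leaving out 1 column gave 3.49% to 3.51%, 5.57% to 5.70%, 3.19% to 3.36% and 1.66% to 2.10% for the median shares of all columns and of the BRP564, BRP528 and F blocks, 0.606 to 0.612 for the subunit ratio, 20 to 24 members higher and 0 lower between the BRP blocks, 0 higher and 56 to 63 lower in the F block, 0.611 to 0.685 for rho, 9.64-fold to 10.8-fold for the spread and 0.0731% to 0.0859% for the intronic share. No paired analysis was possible because the columns carry no replicate numbers and no test was made. Depth limits the F block, where a count of 0 allows up to 3.58 CPM in F16.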

Other observations

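Rows of the exonic table that belong to the ribosome but fall outside the symbol rule were counted too. Rpl22l1 had 202179 counts, Rpl36al 128653, Rps3a1 99684, Fau 71105 and Rpl7l1 25549. In the medians of the BRP564 and BRP528 blocks Rps3a1 was at 322 and 168 CPM, Rpl22l1 at 318 and 436 and Fau at 129 and 151. Annotated pseudogene rows held few counts, at most 3809 for Rps15a-ps6. Among the genes listed for a terminal oligopyrimidine tract, Hnrnpa1 had 1 count over the 28 columns. Tsc1 reached 14833 CPM in 1 F column, against a median of 0.0752 CPM over that block.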
